A study of Homo sapiens with 14 samples.

Results

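Condensin I and condensin II are the protein complexes that fold chromatin into mitotic chromosomes, and their subunits are encoded by 8 genes: SMC2, SMC4, NCAPD2, NCAPG, NCAPH, NCAPD3, NCAPG2 and NCAPH2. These genes were taken by their symbols from the gene column of both count tables, 8 of the 26732 genes named in both tables, and all 8 passed the low-count filter in each line (8 of 13174 genes tested in A549 and 8 of 15017 in H1792). SMC2 and SMC4 form the ATPase pair that both complexes share. NCAPH is the kleisin that closes the ring of condensin I, and NCAPD2 and NCAPG are its HEAT-repeat subunits. NCAPH2, NCAPD3 and NCAPG2 take the same places in condensin II. Condensin II is nuclear through the cell cycle and begins compaction in prophase, whereas condensin I reaches chromosomes after the nuclear envelope breaks down. Mitotic kinases, aurora B and CDK1 among them, phosphorylate condensin subunits and promote their loading.

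RNA sequencing was carried out on A549 and H1792, a pair of human lung adenocarcinoma cell lines, after 48 h with the vehicle DMSO or with 0.1 uM AMG900, an inhibitor of the aurora kinases. A549 gave 4 DMSO and 4 AMG900 libraries and was grown in DMEM, and H1792 gave 3 and 3 and was grown in RPMI 1640. The labels name no genetic change in either line, and each line stands for 1 tumour. The question was how much RNA of each condensin subunit was present with and without the inhibitor, and whether the lines differed. In this design the line cannot be told apart from its medium, its count table and its library depth, and because the samples are bulk RNA, fewer cycling cells and less condensin RNA per cell cannot be told apart either. The labels do not say whether replicates came from cultures set up independently, so p-values measure the spread between these libraries.

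Libraries held 4254644 to 18962883 counts in A549 and 42760874 to 79902934 in H1792. The shallowest, A549 DMSO replicate 1, also stood apart from the other 3 DMSO libraries on the second principal component, at 50.6 against -20.7 to -18.7. In that library SMC2, SMC4, NCAPG and NCAPH2 were higher, and NCAPD2, NCAPD3 and NCAPH lower, than in any other A549 DMSO library, and the A549 values without it are given below. The epithelial keratins KRT8 and KRT18 were expressed in both lines. They averaged 3200 and 1626 CPM (counts scaled to a common library size) in A549 with DMSO, and 456 and 261 CPM in H1792 with DMSO. These 2 genes made up most of the summed level of 5 epithelial markers, which was 4647 to 6645 CPM in A549 and 689 to 816 CPM in H1792. EPCAM was too low to be tested in A549. In H1792 with DMSO, EPCAM averaged 3.40, KRT19 6.95 and CDH1 0.681 CPM. The leukocyte genes PTPRC and CD3E were too low to be tested in either line, and the summed level of 7 leukocyte and endothelial genes was 58.6 to 88.9 CPM in A549 with DMSO and 144 to 166 with AMG900, and 101 to 135 and 173 to 195 CPM in H1792.

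The promoters of the 3 condensin I-specific genes are shown first, since NCAPG and NCAPH had the largest decreases of the 8 genes in A549 and NCAPD2 the highest level of all. Sequences are from RefSeq (GRCh38.p14), in which 7 of the 8 members had a window from 250 bases before to 50 bases after a transcription start, 10 windows in all. NCAPH2 had no entry. Each line below gives the 250 bases before the start on the plus strand: NCAPG at chr4:17810729-17810978, NCAPD2 at chr12:6493852-6494101 and NCAPH at chr2:96335516-96335765. Capitals mark the letters TTTGAA or TTCGAA on either strand, the core of the cell cycle genes homology region (CHR), and CCAAT on either strand, the CCAAT box.
NCAPG: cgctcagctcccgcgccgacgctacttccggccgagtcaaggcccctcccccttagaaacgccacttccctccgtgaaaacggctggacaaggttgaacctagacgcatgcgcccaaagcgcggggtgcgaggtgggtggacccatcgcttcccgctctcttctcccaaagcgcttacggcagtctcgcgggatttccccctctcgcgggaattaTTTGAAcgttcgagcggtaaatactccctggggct
NCAPD2: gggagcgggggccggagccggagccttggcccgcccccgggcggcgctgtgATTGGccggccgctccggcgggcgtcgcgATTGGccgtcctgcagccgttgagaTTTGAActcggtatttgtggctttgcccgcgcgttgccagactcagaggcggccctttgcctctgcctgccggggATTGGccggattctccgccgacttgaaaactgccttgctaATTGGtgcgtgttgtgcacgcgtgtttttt
NCAPH: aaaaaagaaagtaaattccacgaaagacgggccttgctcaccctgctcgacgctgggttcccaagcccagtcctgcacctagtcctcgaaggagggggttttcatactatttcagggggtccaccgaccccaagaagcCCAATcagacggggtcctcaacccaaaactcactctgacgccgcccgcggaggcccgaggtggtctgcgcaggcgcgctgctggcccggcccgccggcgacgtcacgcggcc
The NCAPG window held CHR letters at positions -35 to -30 from the start and no CCAAT. The NCAPD2 window held both, CHR letters at positions -145 to -140 and 4 copies of CCAAT on the minus strand, while the NCAPH window held 1 CCAAT and no CHR letters. Over the members, CHR letters were in 6 of 10 windows, each of a different gene (SMC2, SMC4, NCAPD2, NCAPG, NCAPD3 and NCAPG2), compared with 16.35% of all 35116 windows of this length. CCAAT was in 3 of the 10 windows (NCAPD2, NCAPH and NCAPD3), compared with 34.61% of all windows. The E2F letters TTTGGCGC, TTTCGCGC or TTTCCCGC were in 1 window, of NCAPD3, compared with 2.737% of all. The searched letters do not overlap one another within a member's window, and a match describes the letters and is not a measured binding site.

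AMG900 lowered the RNA of all 8 condensin subunits in A549. The decrease ran from 1.79-fold for NCAPH2 to 10.8-fold for NCAPG, and 7 of the 8 genes fell more than 3-fold. In edgeR's quasi-likelihood test with Benjamini-Hochberg adjustment, 8 of 8 were called lower at a false discovery rate of 0.01, and 17.8% of all genes tested were called lower and 17.2% higher. The median log2 fold change of the 8 genes was -2.51, and that of all genes tested was -0.01. All 8 genes had every AMG900 library below every DMSO library, as did 22% of all genes tested.

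**Figure D1:**
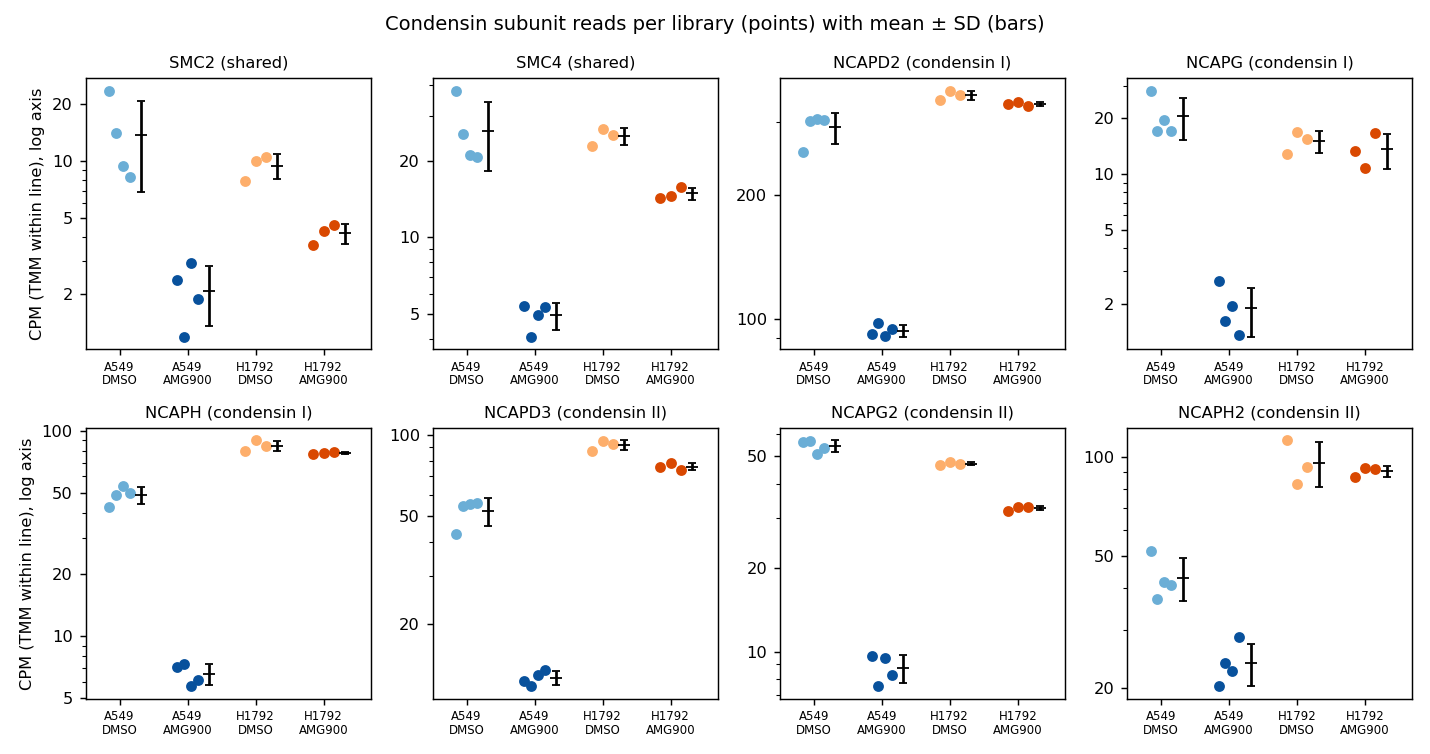
Reads of each condensin subunit in CPM (log axis), 1 panel per gene, in A549 with DMSO (n = 4) and AMG900 (n = 4) and in H1792 with DMSO (n = 3) and AMG900 (n = 3); points are libraries and bars are mean ± SD. In A549 the AMG900 points lie below the DMSO points in all 8 panels, and in H1792 the groups overlap for NCAPG and NCAPH2.

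Of the shared ATPases, SMC2 had 23.5, 14.02, 9.49 and 8.25 CPM in A549 DMSO replicates 1 to 4 and 2.36, 1.19, 2.91 and 1.87 CPM in AMG900 replicates 1 to 4. SMC4, its partner, had 37.8, 25.5, 21.1 and 20.8 CPM with DMSO and 5.39, 4.07, 4.96 and 5.30 CPM with AMG900. The DMSO values spread widely for both genes, with replicate 1 the highest, and neither gene's groups overlapped. The log2 fold change was -2.64 for SMC2 (SE 0.34, edgeR adjusted p = 1.84e-05) and -2.38 for SMC4 (SE 0.20, edgeR adjusted p = 2.34e-07). Without DMSO replicate 1 the log2 fold changes were -2.32 and -2.19. SMC2 was counted with only 17 to 54 reads in the AMG900 libraries, which limits its precision.

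The condensin I-specific genes included both the largest decreases and the best-measured subunit. NCAPG had 28.2, 17.0, 19.7 and 17.1 CPM with DMSO and 2.65, 1.61, 1.94 and 1.36 CPM with AMG900, a log2 fold change of -3.43 (SE 0.23, edgeR adjusted p = 2.30e-08), and 0.357% of all genes tested fell further. The kleisin NCAPH had 42.5, 48.8, 53.9 and 49.7 CPM with DMSO and 7.09, 7.30, 5.72 and 6.14 CPM with AMG900, a log2 fold change of -2.91 (SE 0.12, edgeR adjusted p = 1.77e-10). NCAPH thus fell 7.51-fold with little spread in either group. NCAPD2 had 253, 302, 305 and 303 CPM with DMSO and 91.9, 97.6, 90.7 and 94.7 CPM with AMG900, a log2 fold change of -1.64 (SE 0.08, edgeR adjusted p = 3.72e-10). Its decrease was the smallest of the condensin I-specific genes, and DMSO replicate 1 was its lowest DMSO library. Without that library the log2 fold changes of NCAPG, NCAPH and NCAPD2 were -3.27, -2.96 and -1.69.

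Of the condensin II-specific genes, NCAPG2 had 56.2, 56.8, 50.9 and 53.7 CPM with DMSO and 9.64, 7.51, 9.49 and 8.27 CPM with AMG900, a log2 fold change of -2.64 (SE 0.11, edgeR adjusted p = 1.77e-10). NCAPD3 had 42.8, 54.3, 55.5 and 55.8 CPM with DMSO and 12.3, 11.7, 12.9 and 13.4 CPM with AMG900, a log2 fold change of -2.06 (SE 0.11, edgeR adjusted p = 2.58e-09). Both fell clear of the spread between libraries. The kleisin NCAPH2 had 51.9, 37.2, 41.9 and 40.9 CPM with DMSO and 20.2, 23.7, 22.5 and 28.5 CPM with AMG900. Its log2 fold change of -0.84 (SE 0.13, edgeR adjusted p = 9.52e-05) was the smallest of the 8, and 9.83% of all genes tested fell further. Without DMSO replicate 1 the log2 fold changes of NCAPG2, NCAPD3 and NCAPH2 were -2.63, -2.13 and -0.75. For each of the 8 genes the two-sided exact permutation test on log2 CPM gave p = 0.0286. That is as low as a comparison of 4 with 4 can reach.

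In H1792, 4 of the 8 subunits were called lower with AMG900 and none higher, with log2 fold changes from -1.18 for SMC2 to -0.07 for NCAPD2. In edgeR's test 18.8% of all genes were called lower and 16.2% higher in this line. The called genes were SMC2, SMC4, NCAPG2 and NCAPD3, so the 3 condensin I-specific genes and NCAPH2 did not pass. With correction for transcript GC content the called genes were SMC2, NCAPD2, NCAPD3, NCAPG2 and NCAPH2, all lower. The median log2 fold change of the 8 genes was -0.20, and that of all genes tested was 0.01. All 8 estimates were below 0, so 0 were higher at an unadjusted p under 0.05, and DESeq2 called 0 higher. Every AMG900 library lay below every DMSO library for 6 of the 8 genes, NCAPG and NCAPH2 being the exceptions, and for 29.6% of all genes tested.

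SMC2 had 7.87, 9.97 and 10.6 CPM in H1792 DMSO replicates 1 to 3 and 3.61, 4.27 and 4.63 CPM in AMG900 replicates 1 to 3, a log2 fold change of -1.18 (SE 0.14, edgeR adjusted p = 8.40e-05). SMC4 had 23.0, 26.7 and 25.4 CPM with DMSO and 14.3, 14.6 and 15.8 CPM with AMG900, a log2 fold change of -0.75 (SE 0.08, edgeR adjusted p = 5.41e-05). These were the largest decreases of the family in H1792 without GC correction, and SMC2 alone fell more than 2-fold. After correction for transcript GC content, SMC2 stood at -0.66 and SMC4 at -0.18 (edgeR adjusted p = 0.0364, not called), the latter a smaller decrease than those of NCAPH2, NCAPG2 and NCAPD3. The condensin II gene NCAPG2 had 46.6, 47.8 and 47.0 CPM with DMSO and 31.998, 32.9 and 33.0 CPM with AMG900, a log2 fold change of -0.53 (SE 0.06, edgeR adjusted p = 4.82e-05). NCAPD3 had 87.1, 94.6 and 92.1 CPM with DMSO and 75.8, 78.3 and 74.0 CPM with AMG900, a log2 fold change of -0.26 (SE 0.06, edgeR adjusted p = 0.00291). The NCAPD3 call was lost on leaving out DMSO replicate 3 or any 1 AMG900 library, with edgeR adjusted p from 0.0122 to 0.0193 and log2 fold changes from -0.29 to -0.24.

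For the 4 genes without a call every 95% interval included 0. NCAPD2 had 338, 356 and 349 CPM with DMSO and 331, 335 and 327 CPM with AMG900, a log2 fold change of -0.07 (95% interval -0.18 to 0.03, edgeR adjusted p = 0.238). NCAPH had 79.4, 89.7 and 84.2 CPM with DMSO and 76.8, 77.5 and 78.9 CPM with AMG900, a log2 fold change of -0.12 (95% interval -0.25 to 0.01, edgeR adjusted p = 0.118). Their groups did not overlap but lay close together, and without DMSO replicate 1 NCAPH was called, at -0.18 (edgeR adjusted p = 0.00526). NCAPG had 12.8, 16.9 and 15.5 CPM with DMSO and 13.3, 10.8 and 16.7 CPM with AMG900, a log2 fold change of -0.14 (95% interval -0.48 to 0.19, edgeR adjusted p = 0.456). NCAPH2 had 112, 83.0 and 93.0 CPM with DMSO and 86.7, 92.8 and 92.2 CPM with AMG900, a log2 fold change of -0.09 (95% interval -0.30 to 0.12, edgeR adjusted p = 0.472). The groups of both genes overlapped, and DMSO replicate 1 was the highest NCAPH2 library. An exact permutation test of 3 against 3 libraries cannot give less than p = 0.1, the value for each of the 6 genes whose groups did not overlap, and gave 0.6 for NCAPG and 0.7 for NCAPH2.

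**Figure D2:**
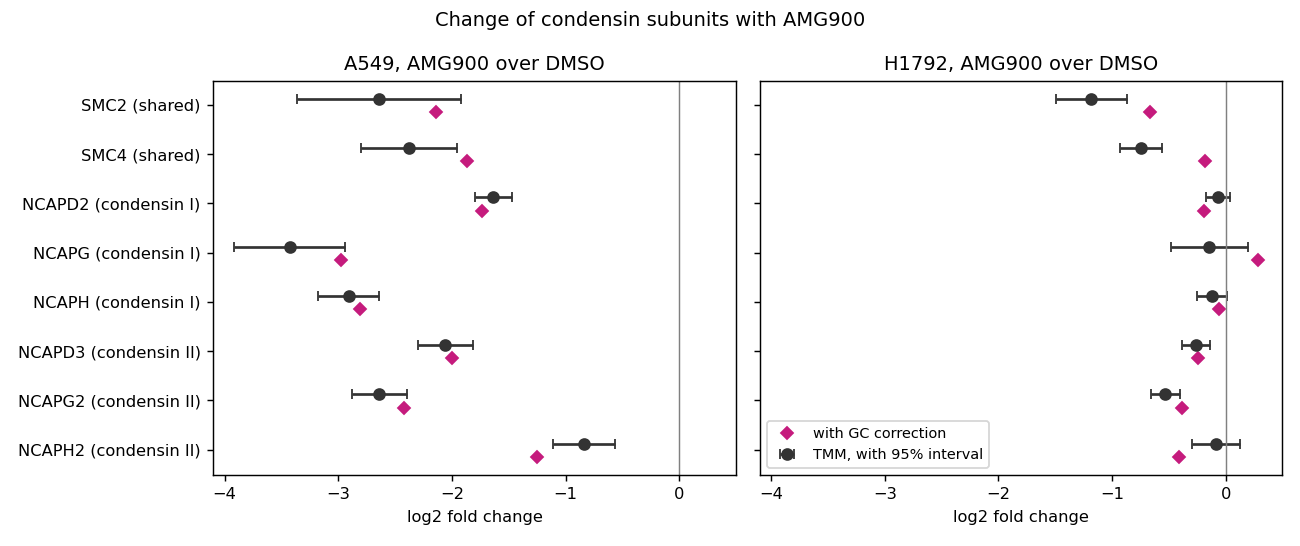
Log2 fold change of each condensin subunit, AMG900 over DMSO, in A549 (left, 4 against 4 libraries) and H1792 (right, 3 against 3); circles with bars are the edgeR estimate and its 95% interval and diamonds the estimate after correction for transcript GC content. All 8 circles are below 0 by at least 0.84 in A549; in H1792 the intervals of NCAPD2, NCAPG, NCAPH and NCAPH2 cross 0.

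Whether the response differed by line was tested by an interaction term in 1 fit of the 14 libraries. Of the 8 subunits, 7 had a log2 fold change called higher, that is a smaller decrease, in H1792 than in A549 (edgeR, false discovery rate 0.01), compared with 5.37% of all genes tested, and all 8 differences were above 0. The difference was largest for NCAPG, at 3.20 (SE 0.29, edgeR adjusted p = 9.97e-08), and NCAPH, at 2.72 (SE 0.13, edgeR adjusted p = 1.43e-11). It was 2.03 for NCAPG2, 1.72 for NCAPD3, 1.54 for SMC4 and 1.49 for NCAPD2, all called. For NCAPH2 it was 0.67 (SE 0.17, edgeR adjusted p = 0.00733), and this call was lost on leaving out any 1 of 10 of the 14 libraries, with edgeR adjusted p from 0.0125 to 0.0215; it was kept without A549 DMSO replicate 1 or 2, A549 AMG900 replicate 4 or H1792 DMSO replicate 1. For SMC2, the gene with the widest spread, the difference of 1.35 (SE 0.40, edgeR adjusted p = 0.0184) did not pass, and it passed without A549 DMSO replicate 4, at 1.55 (edgeR adjusted p = 0.00682). Without A549 DMSO replicate 1 the count was again 7, with a difference of 3.06 for NCAPG and 1.06 for SMC2.

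With DMSO, 4 of the 8 subunits were higher in H1792 than in A549 and none was called lower, where 34.2% of all genes tested were called higher and 31.9% lower in edgeR's test. No subunit was lower at an unadjusted p under 0.05 (0 of 8) or by DESeq2 (0 of 8). The called genes were NCAPH2 (log2 ratio 1.28, SE 0.12, edgeR adjusted p = 1.02e-08), NCAPD3 (0.89, SE 0.09, edgeR adjusted p = 1.63e-08), NCAPH (0.88, SE 0.09, edgeR adjusted p = 2.15e-08) and NCAPD2 (0.35, SE 0.07, edgeR adjusted p = 1.26e-04). The ratios of SMC2 (-0.35, 95% interval -0.89 to 0.20), NCAPG (-0.30, -0.68 to 0.08), NCAPG2 (-0.11, -0.27 to 0.06) and SMC4 (0.08, -0.24 to 0.40) did not pass. Without A549 DMSO replicate 1 the same number, 4, were called higher, and the ratios of SMC2 and SMC4 became -0.05 and 0.26. The DMSO ratio and the interaction use the same DMSO libraries, so they are given side by side and were not related to each other.

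Levels of different subunits were compared as CPM per kilobase of transcript (RPKM). NCAPD2 was the most abundant in every group, at 57.6 ± 5.49 RPKM in A549 with DMSO (SD, n = 4), 19.6 ± 0.796 with AMG900 (n = 4), 73.8 ± 1.78 in H1792 with DMSO (n = 3) and 70.4 ± 0.894 with AMG900 (n = 3). SMC2 was the least abundant in every group, from 2.22 ± 1.08 RPKM in A549 with DMSO (n = 4) to 0.355 ± 0.122 with AMG900 (n = 4). In A549 with DMSO the order was NCAPD2, NCAPG2, NCAPH2, NCAPH, NCAPD3, SMC4, NCAPG and SMC2. The libraries of NCAPG2 and NCAPH2 overlapped, and from NCAPH down each gene overlapped the next. With AMG900 the A549 order was NCAPD2, NCAPH2, NCAPG2, NCAPD3, NCAPH, SMC4, NCAPG and SMC2, and the overlapping neighbours were NCAPH with SMC4 and NCAPG with SMC2. NCAPH moved from above to below NCAPD3, although the DMSO libraries of this pair overlapped. In H1792 with DMSO the order was NCAPD2, NCAPH2, NCAPH, NCAPD3, NCAPG2, SMC4, NCAPG and SMC2, with no overlapping neighbours. With AMG900 it differed only in NCAPG and SMC4, whose libraries overlapped.

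**Figure D3:**
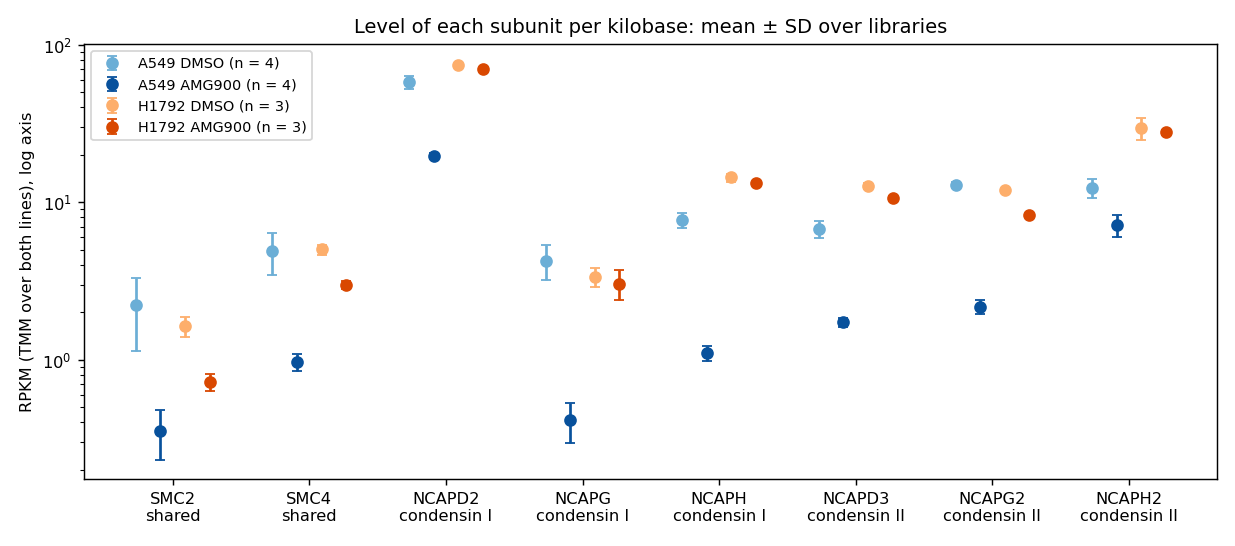
Level of each condensin subunit in CPM per kilobase (RPKM, log axis), mean ± SD, in the 4 groups (A549 DMSO and AMG900, n = 4 each; H1792 DMSO and AMG900, n = 3 each). NCAPD2 is highest and SMC2 lowest in every group, and the A549 AMG900 points lie lowest for every gene.

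Summed over the 8 genes, the level was 109 ± 2.15 RPKM with DMSO and 33.6 ± 1.52 with AMG900 in A549 (SD, n = 4 each), and 152 ± 0.353 and 137 ± 1.79 in H1792 (SD, n = 3 each). The groups did not overlap in either line. The unequal changes in A549 shifted the make-up of the family. NCAPH2 made up 11.3% ± 1.76 of the summed level with DMSO and 21.4% ± 2.44 with AMG900 (SD, n = 4 each), with no overlap. In H1792 NCAPH2 made up 19.4% ± 2.97 and 20.3% ± 0.517 (SD, n = 3 each), with overlap. NCAPD2 made up 53.0% ± 4.18 and 58.5% ± 1.73 in A549, and 48.5% ± 1.27 and 51.4% ± 0.801 in H1792. The shares were not corrected for transcript GC content. With that correction the NCAPH2 log2 fold change in A549 was -1.25 instead of -0.84.

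Pairs of subunits that take the same place in the complexes were compared within each library, as log2 ratios of RPKM. For the kleisins, NCAPH over NCAPH2 was -0.67 ± 0.32 with DMSO and -2.69 ± 0.31 with AMG900 in A549 (SD, n = 4 each), and -1.03 ± 0.31 and -1.07 ± 0.04 in H1792 (SD, n = 3 each). NCAPG over NCAPG2 was -1.62 ± 0.33 and -2.39 ± 0.29 in A549, and -1.83 ± 0.19 and -1.46 ± 0.31 in H1792. Both ratios were thus lower with AMG900 in A549 without overlap, and overlapped between the H1792 groups. NCAPD2 over NCAPD3 went the other way, from 3.09 ± 0.06 to 3.50 ± 0.11 in A549 and from 2.54 ± 0.02 to 2.73 ± 0.02 in H1792, without overlap in either line. The mean log2 level of the 3 condensin I-specific genes minus that of the 3 condensin II-specific genes was 0.27 ± 0.06 with DMSO and -0.53 ± 0.22 with AMG900 in A549, without overlap, and -0.11 ± 0.16 and 0.07 ± 0.12 in H1792, with overlap. In A549 this shift came from NCAPH over NCAPH2 and, less, from NCAPG over NCAPG2, and NCAPD2 over NCAPD3 moved against it. It thus rests in part on NCAPH2, the subunit with the smallest decrease, at a log2 fold change of -0.84 (-1.25 with GC correction).

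The shared ATPases were also set against the complex-specific subunits. In H1792 their mean log2 level minus that of the condensin I-specific genes was -2.41 ± 0.07 with DMSO and -3.25 ± 0.11 with AMG900 (SD, n = 3 each), without overlap. In A549 it was -1.97 ± 0.53 and -1.83 ± 0.36 (SD, n = 4 each), with overlap. Against the condensin II-specific genes it went from -2.52 ± 0.20 to -3.19 ± 0.11 in H1792, without overlap, and from -1.70 ± 0.53 to -2.36 ± 0.30 in A549, with overlap, so the mean shift was -0.67 and -0.66. SMC2 over SMC4 was -1.62 ± 0.14 and -2.04 ± 0.12 in H1792, without overlap, and -1.22 ± 0.29 and -1.49 ± 0.41 in A549, with overlap. These ratios are described with no test.

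Most of these ratios compare transcripts of different GC content, and several changed when GC was corrected for. Taken from the fitted log2 fold changes in H1792, the change of the shared ATPases against the condensin I-specific genes was -0.85 without and -0.44 with the correction, and against the condensin II-specific genes it was -0.67 without and -0.08 with it. In H1792 the change of NCAPD2 over NCAPD3 was 0.19 without and 0.05 with the correction, that of NCAPG over NCAPG2 was 0.39 and 0.67, and that of NCAPH over NCAPH2 was -0.03 and 0.35. The condensin I over II change in H1792 was 0.18 and 0.36. In A549 the changes of NCAPH over NCAPH2 (-2.07 without, -1.55 with), NCAPG over NCAPG2 (-0.79, -0.56), NCAPD2 over NCAPD3 (0.42, 0.27) and condensin I over II (-0.81, -0.61) were smaller with the correction and kept their direction. The shared ATPases in A549 changed by 0.15 without and 0.50 with it against condensin I, and by -0.66 and -0.11 against condensin II. SMC2 over SMC4, a pair of like GC content, changed by -0.43 and -0.48 in H1792 and by -0.26 and -0.27 in A549.

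**Figure D4:**
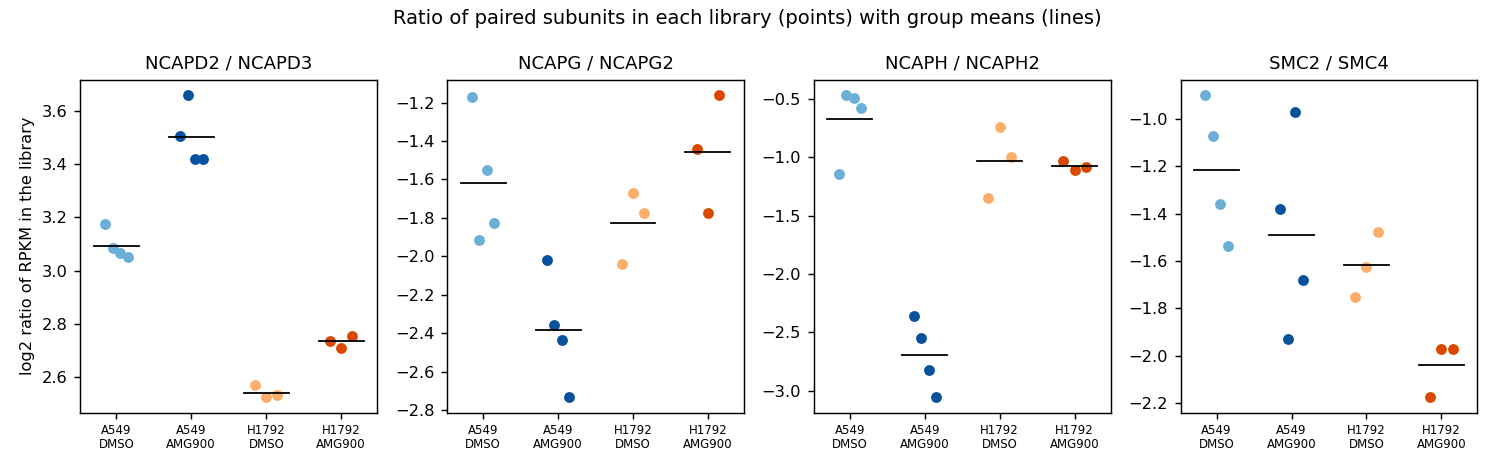
Log2 ratio of RPKM within each library for NCAPD2 over NCAPD3, NCAPG over NCAPG2, NCAPH over NCAPH2 and SMC2 over SMC4, in A549 and H1792 with DMSO and AMG900; points are libraries and lines are group means. The NCAPH over NCAPH2 ratio sits near -0.67 in A549 with DMSO and near -2.69 with AMG900, and its H1792 groups overlap.

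The values of the subunits at either end of the GC range, SMC2, SMC4, NCAPG and NCAPH2, had the AMG900 fold changes that moved most within each line when GC content was corrected for. The transcript used for each gene had 36.6% GC for SMC4, 37.4% for SMC2, 38.7% for NCAPG, 43.96% for NCAPG2, 46.1% for NCAPH, 47.3% for NCAPD3, 51.6% for NCAPD2 and 61.3% for NCAPH2. Across all genes tested with a known GC content, the log2 fold change rose with GC, with a Spearman rho of 0.50 in A549 (12791 genes) and 0.48 in H1792 (14376 genes), a description across genes that share libraries. After a spline correction for GC in each library, all 8 subunits stayed lower in A549, with log2 fold changes from -2.98 for NCAPG to -1.25 for NCAPH2 and a median of -2.07. In H1792 the correction gave -0.66 for SMC2, -0.18 for SMC4 (edgeR adjusted p = 0.0364, no longer called), -0.19 for NCAPD2 (edgeR adjusted p = 0.00277, called) and -0.41 for NCAPH2 (edgeR adjusted p = 2.63e-04, called). NCAPG turned to 0.28 (edgeR adjusted p = 0.0817). The H1792 calls were then 5 genes, of which 3 (SMC2, NCAPD3 and NCAPG2) were among the 4 called without the correction. SMC2 thus kept the lowest log2 fold change in H1792 and SMC4 came to lie among the other subunits. The interaction of the 7 called genes lay between 0.77 and 3.15 after correction. The part of GC content in these changes was not tested.

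**Figure D5:**
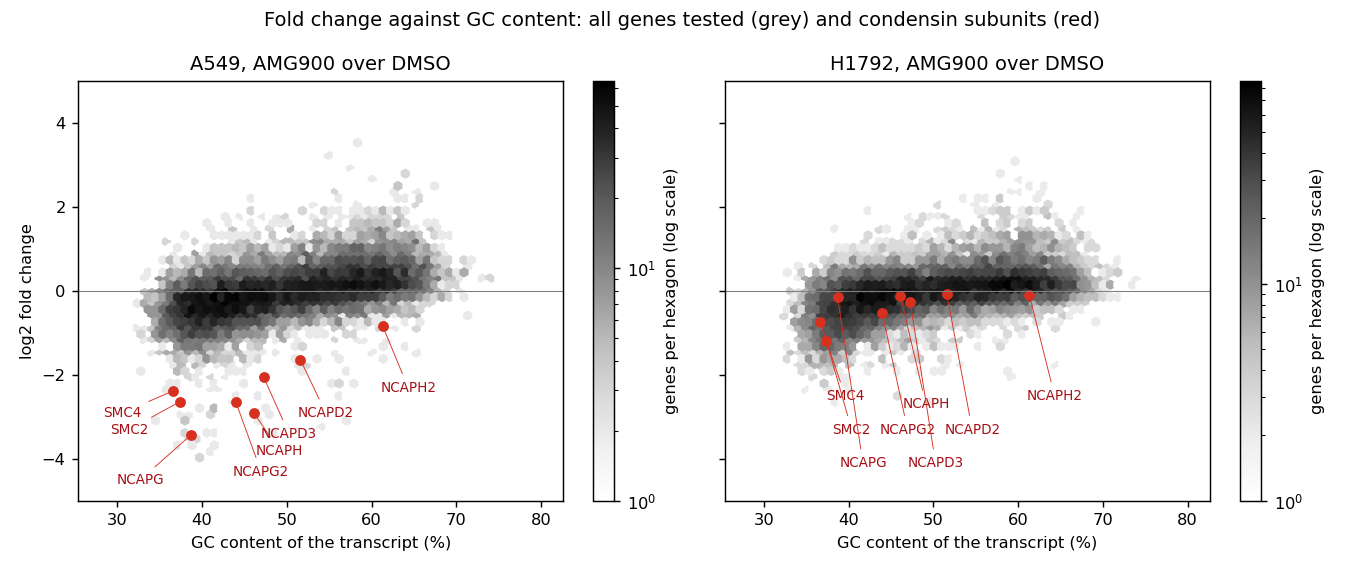
Log2 fold change, AMG900 over DMSO, against the GC content of the transcript (%) in A549 (left) and H1792 (right); grey hexagons count all genes tested on a log scale and red points are the 8 condensin subunits. In both panels the grey cloud tilts upward with GC; in A549 all 8 subunits lie below the bulk of genes of like GC, and in H1792 they lie within it.

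In A549 the known partners and regulators of condensin were lower as well. The list held 18 genes, and 16 of the 17 tested were called lower and none higher, with a median log2 fold change of -3.03. Among kinases that phosphorylate condensin or act beside it, CDK1 (log2 fold change -3.61), PLK1 (-3.22), AURKB (-3.21), AURKA (-2.49) and the casein kinase gene CSNK2A1 (-0.64) were all called lower. Among chromosome proteins, so were TOP2A, the topoisomerase that untangles mitotic chromatids (-3.55), the kinesin gene KIF4A (-3.17) and the chromosome surface protein gene MKI67 (-3.46). TOP2B (-0.91) and AKAP8 (-0.45) were also called lower, with smaller decreases. The remaining called partners lay between -3.24 (CDCA8) and -2.07 (INCENP). MCPH1, an inhibitor of condensin II, stood at -0.20 (edgeR adjusted p = 0.388) and was the only gene tested that did not pass. TTK was too low to be tested in A549. In H1792, TOP2B (-0.86), CDK1 (-0.57) and TTK (-1.52) of 18 were called lower and AURKB (0.24, edgeR adjusted p = 0.00838) higher, and the median was -0.03. Without GC correction the partners called lower thus made up a share near the 18.8% of all genes. More partners were called lower with GC correction or on leaving out a DMSO library, as given in the closing section. The interaction was called for 14 of the 18, all with a higher log2 fold change in H1792, where 5.37% of all genes tested were called in that direction.

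The other SMC complexes had smaller median changes in A549. Of 9 cohesin genes 7 were called lower, with a median log2 fold change of -0.90, led by SMC1A (-1.61) and the kleisin RAD21 (-1.45). Of all genes tested in A549, 17.8% were called lower. Of 6 genes of the SMC5/6 complex, NSMCE4A (-1.14) and SMC6 (-1.11) were called lower and NSMCE3 (0.30) higher, with a median of -0.20. In H1792 6 of 9 cohesin genes were called lower, with a median of -0.47, led by RAD21 (-0.88), where 18.8% of all genes tested were called lower. Of the SMC5/6 genes in H1792, SMC6 (-0.83) and NSMCE4A (-0.63) were called lower and NSMCE2 (0.40) higher. Cohesin thus had a lower median in H1792 than the 8 condensin genes (-0.20, 4 called lower). With GC correction the H1792 medians were -0.03 for cohesin and -0.21 for condensin. These cohesin and SMC5/6 counts depended on GC content: with the correction 4 genes of the 2 complexes were called lower in A549 and 3 in H1792, against 9 and 8 without it. The interaction was called with a higher log2 fold change in H1792 for 2 of 9 cohesin genes, compared with 5.37% of all genes tested.

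Cell cycle lists were counted beside the condensin genes. Of the S phase genes of the Seurat package, 41 of 42 tested were called lower in A549 (median log2 fold change -2.30) and 27 of 43 in H1792 (-0.55). Of its G2/M genes, with the condensin members SMC4 and NCAPD2 left out, 48 of 49 were called lower in A549 (-2.88), and in H1792 10 of 50 were called lower and 7 higher (-0.05), shares near those of all genes tested there (18.8% lower and 16.2% higher). The leukocyte and endothelial sum moved with treatment too, and most of it was CD68, which codes for a lysosomal protein and had log2 fold changes of 1.09 in A549 and 0.78 in H1792, both called. Its part and that of the share of cycling cells in the condensin values was not tested.

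The genes most like the kleisins were named by the Pearson correlation of log2 CPM over the 14 libraries, each line centred on its mean, among 8509 genes. For NCAPH they were PRR11 (r = 0.999), MCM4 (0.997) and TRIP13 (0.996), and for NCAPH2 they were TRIM28 (0.987), RABL6 (0.979) and DAZAP1 (0.977). The points share libraries and the treatment groups, so the values describe likeness only. On the same measure NCAPH followed NCAPD2 at 0.996, and NCAPH2 had its 7 correlations with the other subunits between 0.79 and 0.87.

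In GRCh37 (GENCODE lifted annotation), the genes lie at chr9:106856541-106903700 (SMC2), chr3:160117062-160152742 (SMC4), chr12:6602522-6641121 (NCAPD2), chr4:17812602-17846488 (NCAPG), chr2:97001504-97042829 (NCAPH), chr11:134020008-134095398 (NCAPD3, minus strand), chr7:158423861-158497495 (NCAPG2, minus strand) and chr22:50946653-50963209 (NCAPH2), on the plus strand unless stated. Exons of genes on the opposite strand cover part of 4 transcripts: TRIM59 30.3% of SMC4, LCORL 35.6% of NCAPG, JAM3 25.6% of NCAPD3 and SCO2 25.7% of NCAPH2. Exons of a long noncoding RNA gene on the same strand also cover 25.6% of NCAPH2. Whether the counting used strand is not given in the sources used here, so how reads in these stretches were assigned is not known. The values of these 4 genes, their levels per kilobase included, are uncertain to that extent.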

How the data were processed

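Gene expression was measured by RNA sequencing (NextSeq 500) in 14 libraries: A549 with DMSO or 0.1 uM AMG900 (4 each) and H1792 (3 each). The treatment text in the labels gives 3 replicates per treatment, while 4 A549 samples are listed. The authors deposited whole-number counts per gene, 1 table per line; the submitters' processing notes name STAR, HTSeq and hg19/GRCh37, and versions and strand setting are not given in the sources used here. Of the H1792 entries, 28 had turned into dates (0.101% to 0.117% of counts) and were left out. No columns of other samples were present.

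Counts were analysed in R 4.3.3 with edgeR 4.0.16 (TMM, filterByExpr, quasi-likelihood test, Benjamini-Hochberg over all genes, threshold 0.01), separately per line, and in 1 fit of all libraries for the interaction and the DMSO comparison. The study's methods used DESeq2, run here as an alternative (1.42.0). SE is the log2 fold change divided by the root of F. CPM used TMM factors within a line, RPKM used TMM over both lines with GENCODE transcript lengths, and correlations log2 CPM with a prior count of 2. GC content was corrected per library by a spline with 5 degrees of freedom. The biological coefficient of variation was 12.8% in A549 and 9.60% in H1792. No pair of replicates had counts as alike as sampling alone gives. Scripts were tested on simulated data. Of simulated 2-fold changes, 72% were called in A549, 68.4% in H1792 and 61.2% for the interaction. Of 4-fold changes, 95.9%, 97% and 81.8% were called. False calls made up 1.78%, 2.98% and 0.704% of all calls. The members and gene lists were chosen with earlier results of these data known. The text names all 8 members, partners by kinase, chromosome protein and other, and the 3 genes most like each kleisin, among genes that averaged 100 or more counts per library. Other settings tried were DESeq2, other scalings and filters, other thresholds, GC correction, a replicate block and leaving out each library. Precision is limited by depth, mostly in A549.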

Additional observations from a re-analysis of the deposited data

Results flagged for a closer look

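In A549 with DMSO, 1 library was far below the other 3 for NCAPD2, at 253 CPM with the nearest at 302, and for NCAPD3, at 42.8 CPM with the nearest at 54.3. Both were replicate 1, the shallowest library, and Dixon's ratio was 0.948 and 0.889. These were 2 of the 16 gene and group combinations tested, and chance marks about 1 in 20. Without this library the A549 log2 fold changes were -1.69 and -2.13.

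The AMG900 response differed between the lines for 7 subunits in edgeR's interaction test, where 5.37% of all genes tested were called in the same direction. The log2 fold change in H1792 minus that in A549 was 3.20 for NCAPG, 2.72 for NCAPH, 2.03 for NCAPG2, 1.72 for NCAPD3, 1.54 for SMC4, 1.49 for NCAPD2 and 0.67 for NCAPH2. The NCAPH2 call was lost in 11 of 22 alternatives. The line, its medium, its count table and its library depth cannot be told apart in this difference.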

How the results depend on the processing

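All 8 A549 decreases were called under every alternative run except the 2-fold limit, which left 7, and no subunit was called higher in either line under any. That limit left 1 subunit lower in H1792 and 1 higher in H1792 with DMSO, 1 partner lower in H1792, and 5 (A549) and 0 (H1792) cohesin and SMC5/6 genes. GC correction gave 5 partners lower in H1792, and 4 (A549) and 3 (H1792) cohesin and SMC5/6 genes, or 5 and 3 with the replicate block. NCAPG in H1792 turned to 0.28 with GC correction and 0.27 with the block added. The DMSO ratio of SMC4 turned to -0.0265 with total-count scaling, -0.0118 with GC correction and -0.0191 with the block added, and that of NCAPG2 to 0.0869 and 0.0828. Neither ratio was called in any setting. Total-count scaling moved the median DMSO ratio of all genes by -0.11. The cause was not tested.

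Leaving out each library in turn gave 3 to 5 subunits lower in H1792, 3 to 5 partners lower (5 without DMSO replicate 1) and 5 to 9 cohesin and SMC5/6 genes lower in H1792 (5 without AMG900 replicate 1 or 2). NCAPH2 in H1792 ranged from -0.191 to 0.0188 (the highest without DMSO replicate 1), and the DMSO ratio of SMC4 from -0.0131 to 0.257 (below 0 without A549 DMSO replicate 3 or 4). With 2 libraries left in a group, edgeR's shared spread carried the test. DESeq2, and edgeR without a filter, called the SMC2 interaction (DESeq2 adjusted p = 0.00328, edgeR adjusted p = 0.00250). Replicate numbers did not pair the libraries (correlations of same-numbered deviations -0.06 to 0.04). Among the subunits the replicate block ended 1 call, the NCAPH2 interaction (0.68, edgeR adjusted p = 0.0217). Depth limits SMC2 and NCAPG in A549 with AMG900, at 17 to 54 and 21 to 36 counts.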
